A study of Mus musculus with 18 samples.

Results

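The genes of cholesterol synthesis, sterol transport and their control by SREBP2 were read out of liver arrays of CD1 mice, an outbred stock, on chow or on a high-fat diet (HFD), with or without CMPF, a furan fatty acid metabolite found in blood. The set held 30 genes, named by symbol; 27 of them had at least 1 probe set that the probe table pairs with that symbol alone, and each was followed by 1 probe set, its brightest on average over all 18 arrays. These 27 genes were among 13221 tested, out of 18193 genes with such a probe set. The mean over all arrays of each of the 27 lay above the lower limit on signal, 4.01 on the log2 scale. Single arrays could lie under it, as for Fdps on reversal chow (lowest 3.78) and Lpin3 on prevention chow (lowest 3.62). No such probe set was listed for Acat2, Soat1 and Soat2.

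In the prevention model, wild-type mice were given vehicle or 6 mg/kg of CMPF daily over 1 week and were then fed HFD, with 60% of its energy from fat, for 4 weeks per the sample labels and for 4 to 5 weeks per the series text. The order was turned in the reversal model, where wild-type mice ate HFD for 6 weeks before 2 weeks of daily injections of vehicle or of 6 mg/kg CMPF. Both models had a chow group, an HFD group given vehicle and an HFD group given CMPF, with 3 arrays each. Whether chow mice were injected, the age of the mice and the number of animals behind an array are not given in the sources used here, so each p below measures the spread between arrays.

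SREBP2, encoded by Srebf2, is a transcription factor held in the membrane of the endoplasmic reticulum by its escort Scap. Where membrane sterol is plentiful, the Insig proteins retain the pair there; where it is scarce, Scap carries SREBP2 to the Golgi, cleavage releases its active part, and genes of cholesterol synthesis are transcribed. The liver is a main site of this synthesis, of the uptake of cholesterol from lipoproteins and of its export to bile.

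Of the 30 genes, 24 had a window in the set of RefSeq promoter windows used here (mouse build GRCm38.p6). Each window ran from 250 bases before to 50 bases after the start of transcription. That set held no window for Fdps, Fdft1, Sqle, Stard4, Npc1 and Soat2. Windows were searched on both strands for TCACNCCAC, a form of the sterol regulatory element bound by SREBP, for CCAAT, the core of NF-Y sites, for GGGCGG, the core of Sp1 sites, and for CACGTG, an E-box. The sterol element in this form was in the window of 1 of the 24 genes, Hmgcs1, against 1.44% of 27025 genes with a window. CCAAT was in a window of 20 of the 24 genes (41.1% of all genes) and GGGCGG in 22 of 24 (38.2%). CACGTG was in 7 of 24 (8.09%). These are matches of letters in a window, not measured binding.

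The 250 bases before the start are shown for Hmgcs1, the gene with the sterol element, and for 4 genes whose transcripts rose on HFD in the reversal model. Sequences run 5′ to 3′ on the strand of the gene; capitals mark TCACNCCAC and CCAAT on either strand (ATTGG is CCAAT read on the other strand), and these matches do not overlap here. Regions are Hmgcs1 chr13:119690101-119690350 (plus strand), Msmo1 chr8:64733579-64733828 (minus), Cyp51 chr5:4104698-4104947 (minus), Nsdhl chrX:72918271-72918520 (plus) and Insig1 chr5:28071162-28071411 (plus).
Hmgcs1: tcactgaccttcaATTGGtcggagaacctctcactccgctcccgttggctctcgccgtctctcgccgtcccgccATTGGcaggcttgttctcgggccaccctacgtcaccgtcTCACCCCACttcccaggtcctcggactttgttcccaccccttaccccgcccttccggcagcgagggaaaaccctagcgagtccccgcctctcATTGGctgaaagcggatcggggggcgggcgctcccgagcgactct
Msmo1: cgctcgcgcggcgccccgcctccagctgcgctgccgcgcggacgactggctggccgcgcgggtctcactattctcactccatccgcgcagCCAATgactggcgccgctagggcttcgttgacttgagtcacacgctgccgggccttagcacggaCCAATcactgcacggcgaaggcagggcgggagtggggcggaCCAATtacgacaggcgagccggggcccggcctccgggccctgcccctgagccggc
Cyp51: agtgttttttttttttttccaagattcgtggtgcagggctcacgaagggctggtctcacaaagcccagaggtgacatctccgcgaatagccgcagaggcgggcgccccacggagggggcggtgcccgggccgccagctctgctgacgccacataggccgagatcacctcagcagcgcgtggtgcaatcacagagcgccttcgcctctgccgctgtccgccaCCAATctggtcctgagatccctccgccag
Nsdhl: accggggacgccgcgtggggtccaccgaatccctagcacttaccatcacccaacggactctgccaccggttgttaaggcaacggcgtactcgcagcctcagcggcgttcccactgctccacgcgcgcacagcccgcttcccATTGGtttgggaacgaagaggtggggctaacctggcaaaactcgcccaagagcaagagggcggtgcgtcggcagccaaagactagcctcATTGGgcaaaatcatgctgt
Insig1: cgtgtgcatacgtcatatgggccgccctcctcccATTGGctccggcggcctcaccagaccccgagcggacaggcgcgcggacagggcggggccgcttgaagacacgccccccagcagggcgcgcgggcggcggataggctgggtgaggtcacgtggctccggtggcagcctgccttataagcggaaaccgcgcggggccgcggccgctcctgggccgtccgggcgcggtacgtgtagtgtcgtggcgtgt
The sterol element of Hmgcs1 began at position -137, counted from the start of transcription. CCAAT stood 3 times in the stretch shown for Hmgcs1 and for Msmo1, 2 times for Nsdhl, and 1 time each for Cyp51 and Insig1. In Msmo1 the matches began at -160, -96 and -55, in Cyp51 at -29 and in Insig1 at -216.

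Signals are given on the log2 scale of the deposited values, and differences between groups as log2 fold changes with their standard error (SE). A gene was said to rise or fall where limma's adjusted p (Benjamini-Hochberg over 13221 genes) was under 0.05. Prevention CMPF arrays 2 and 3 hardly differed: 0 genes were more than 2-fold apart, where any other pair among 152 had 115 or more. Their mean was used as 1 sample, which leaves n = 2 for prevention CMPF. Array means were 5.08 to 5.10 in prevention and 5.25 to 5.26 in reversal. An index of RNA length, the 3' minus the 5' signal of control transcripts (higher where RNA is shorter), ran from 0.968 to 3.57 over the arrays, and was low in prevention chow (0.968 to 1.98) and on reversal HFD 1 (1.55) and reversal CMPF 3 (1.66). Reversal chow 2 stood apart from its model, with a median correlation with the other arrays of 0.948. The hepatocyte marker Alb was between 14.38 and 14.69 on every array. Other hepatocyte markers varied more, with Tat at 10.11 to 11.71 and Fgb at 12.17 to 13.64. In bulk RNA, fewer cells of a type and less RNA per cell cannot be told apart.

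**Figure D1:**
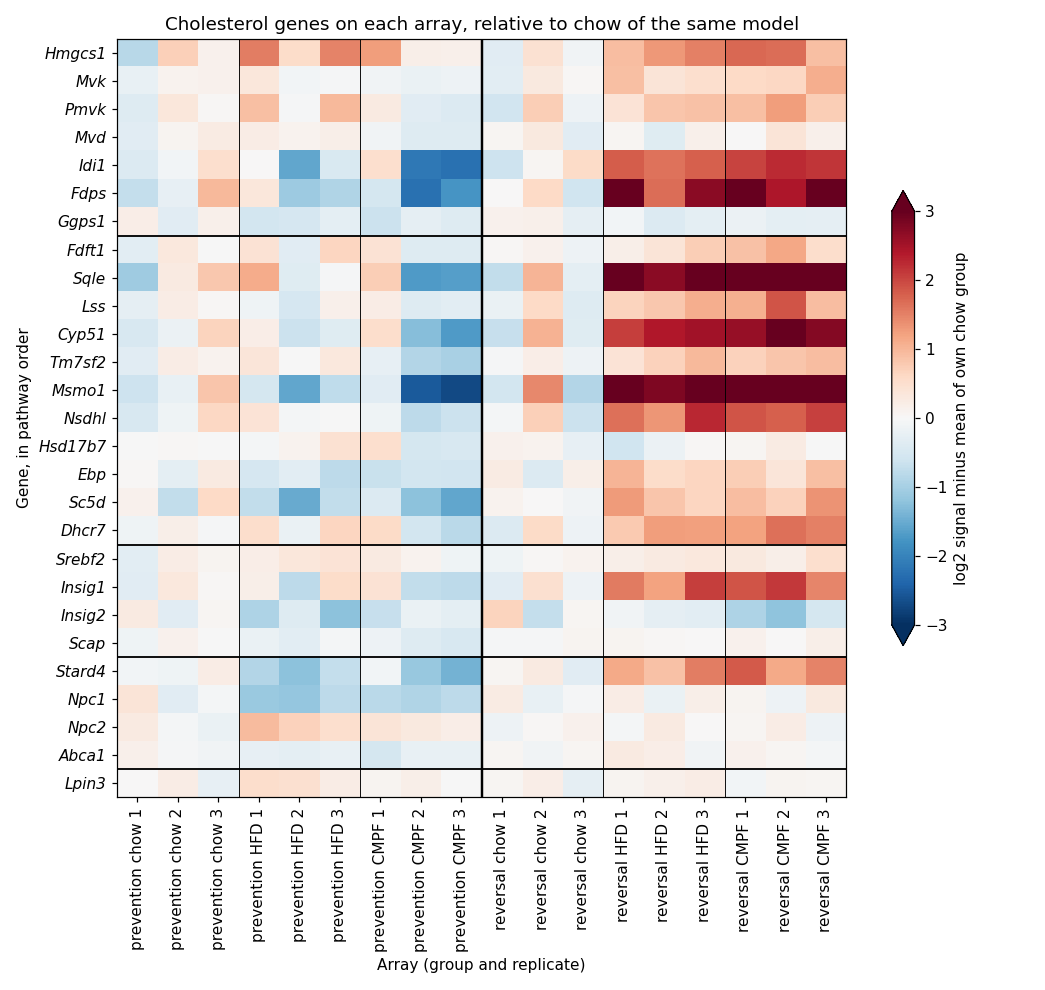
Log2 signal of the 27 cholesterol genes (rows, in pathway order, horizontal lines between role groups) on each of the 18 arrays (columns), minus the mean of the chow group of the same model; red is above chow and blue below, with the scale ending at 3 in either direction. Msmo1, Sqle, Fdps and Cyp51 were above chow on the 6 HFD arrays of the reversal model, and prevention CMPF 2 and 3 were below chow for Msmo1, Idi1, Fdps and Sqle.

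On HFD in the reversal model, 7 of the 27 genes rose against chow and 0 fell; over all genes tested, 2.45% passed, of which 2.17% rose and 0.28% fell. The 7 were Fdps of the isoprenoid steps, Sqle, Cyp51, Msmo1 and Nsdhl of the sterol steps, the SREBP regulator Insig1 and the sterol carrier Stard4. Their increases ran from 2.27-fold for Stard4 to 13.2-fold for Msmo1. The median over the 27 genes was 0.71 on the log2 scale, against 0.03 over all genes, and 23 of the 27 values were above 0 (54.9% of all genes). All 3 HFD arrays lay above all 3 chow arrays for 17 of the 27 genes (14.7% of all genes), and below them for 0 (8.59%).

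The mevalonate and isoprenoid steps turn acetoacetyl-CoA into farnesyl and geranylgeranyl diphosphate; of 7 genes measured, 1 rose, with a median of 0.71. Fdps, farnesyl diphosphate synthase, had signals of 4.38, 4.98 and 3.78 on chow arrays 1 to 3 and of 7.46, 6.05 and 7.08 on HFD. The groups did not overlap, and Fdps rose by 2.48 ± 0.563 (adjusted p = 0.0355). Chow array 3 lay under the lower limit on signal of 4.01 and chow array 1 near it, so the size of this rise is less certain. Idi1, the isomerase of isopentenyl diphosphate, had signals of 7.75, 8.44 and 8.95 on chow and of 10.20, 10.01 and 10.17 on HFD. Its groups did not overlap either, but the value of 1.75 ± 0.545 did not pass (adjusted p = 0.0988). Hmgcs1, the cytosolic synthase that makes HMG-CoA, was at 10.76, 11.56 and 11.00 on chow and at 12.02, 12.40 and 12.61 on HFD, with a value of 1.24 ± 0.405 (adjusted p = 0.108). The kinases Mvk (0.60, adjusted p = 0.102) and Pmvk (0.71, 0.229), the decarboxylase Mvd (-0.05, 0.91) and Ggps1, geranylgeranyl diphosphate synthase (-0.25, 0.349), did not pass.

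Of 11 genes of the squalene and sterol steps, 4 rose, with a median of 0.92. Msmo1, the C-4 methylsterol oxidase, was at 5.97, 7.96 and 5.66 on chow and at 10.79, 9.33 and 10.62 on HFD. Every HFD array was above every chow array; chow 2 was the highest of its group and HFD 2 the lowest of its own. The difference was 3.72 ± 0.685 (adjusted p = 0.0154). Sqle, squalene epoxidase, a rate-limiting step, was at 4.34, 6.10 and 4.79 on chow and at 8.37, 7.79 and 8.14 on HFD. It rose 8.16-fold, by 3.03 ± 0.618 (adjusted p = 0.0227), again with no overlap and with chow 2 highest in its group. Chow 1 was near the lower limit on signal of 4.01.

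Cyp51, lanosterol 14-alpha-demethylase, rose by 2.33 ± 0.499 (adjusted p = 0.0284), from 5.37, 7.11 and 5.70 on chow to 8.14, 8.45 and 8.58 on HFD. Nsdhl, the dehydrogenase that works with Msmo1 in removing the C-4 methyl groups, rose by 1.74 ± 0.341 (adjusted p = 0.0201), from 6.83, 7.61 and 6.25 to 8.54, 8.22 and 9.15. In both genes the groups were separate and chow 2 was the highest chow array. The 7 other sterol genes did not pass. Of these, Dhcr7, which catalyses the last step of the Kandutsch-Russell route (1.09, adjusted p = 0.0816), Sc5d (0.92, 0.139), the cyclase Lss (0.86, 0.119), the isomerase Ebp (0.74, 0.0761), the reductase Tm7sf2 (0.69, 0.0804) and Fdft1, squalene synthase (0.43, 0.354), had HFD arrays above all chow arrays. Hsd17b7, the 3-ketosteroid reductase that acts after Nsdhl, was at -0.25 (adjusted p = 0.535), and its groups overlapped.

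Among the 4 genes of SREBP control, Insig1, which retains the Scap and SREBP complex and is itself an SREBP target, was at 8.69, 9.51 and 8.86 on chow and at 10.58, 10.24 and 11.10 on HFD. It rose 3.06-fold, by 1.62 ± 0.374 (adjusted p = 0.0383). Insig2, the other retention protein, was at 11.94, 10.56 and 11.32 on chow and at 11.17, 11.01 and 10.95 on HFD, with overlap and a value of -0.23 ± 0.308 (adjusted p = 0.679). Srebf2 itself was higher on all 3 HFD arrays (7.02 to 7.15) than on chow (6.71 to 6.93), but its value of 0.25 ± 0.138 did not pass (adjusted p = 0.283). Scap, at 9.95 to 10.07 on chow and 10.00 to 10.06 on HFD, had a value of 0.04 (adjusted p = 0.843).

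Of 4 transport genes, Stard4, which carries sterol between membranes, was at 8.42, 8.64 and 8.03 on chow and at 9.49, 9.25 and 9.89 on HFD. It rose by 1.18 ± 0.284 (adjusted p = 0.0448). Npc1 and Npc2, which together move cholesterol out of lysosomes, had values of 0.07 (adjusted p = 0.866) and 0.08 (0.774), and Abca1, the efflux pump that loads apolipoprotein A-I, had 0.12 (0.567). Lpin3, a phosphatidate phosphatase of glycerolipid synthesis, had 0.15 (0.525). In these 4 genes the chow and HFD arrays overlapped.

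**Figure D2:**
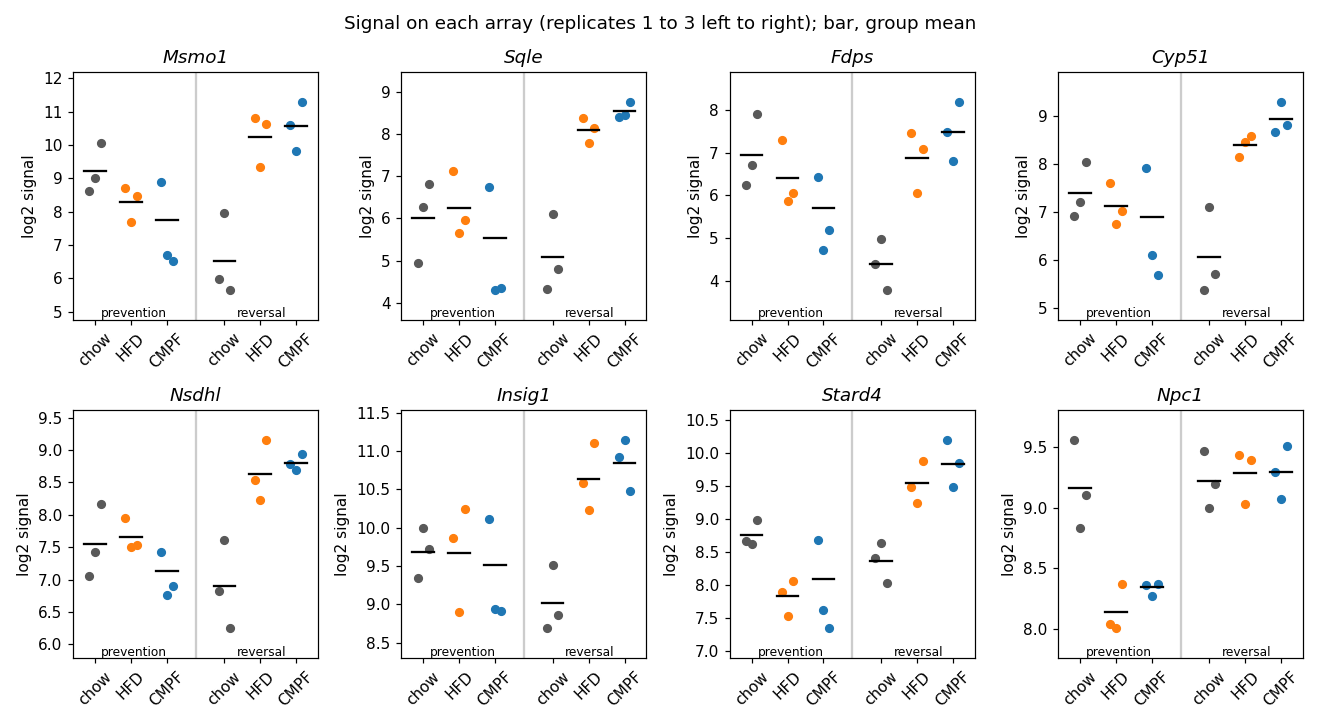
Log2 signal of 8 cholesterol genes on each array: chow (grey), HFD with vehicle (orange) and HFD with CMPF (blue), prevention on the left and reversal on the right of each panel, replicates 1 to 3 from left to right, with a bar at the group mean (prevention CMPF 2 and 3 averaged first). For the first 7 genes the reversal HFD points lie above the reversal chow points; Npc1 is lower on prevention HFD than on prevention chow.

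The number of genes past the threshold depended on the arrays used and on the fit. Leaving out reversal HFD 1 and CMPF 3, the arrays with a low 3' to 5' index, left 0 of 27 genes past the threshold. Msmo1 was then at 3.44 (adjusted p = 0.0727) and Sqle at 2.89 (0.109). With the index as a covariate 8 passed, with Dhcr7 and Hmgcs1 gained and Stard4 lost. Fitting only the 9 reversal arrays, 2 passed, Sqle and Idi1. Of the genes that rose in the main fit, only Sqle was kept there. Fitting only the 2 groups, 0 passed. Without reversal HFD 1 or HFD 3, 0 passed, without chow 3, 1, without HFD 2, 3, without chow 1, 4, and without chow 2, 5. Msmo1 was larger without chow 2, at 4.43 (adjusted p = 0.00777). The mean level of the 7 Kupffer cell and macrophage markers was 6.96 to 7.61 on reversal chow and 7.68 to 8.39 on reversal HFD, with 0 of 7 past the threshold and a median of 0.84; their part in the result was not tested. The 6 hepatocyte markers were at 13.33 to 13.53 and 13.37 to 13.59, with 0 of 6 past the threshold.

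Genes with several probe sets allowed a second reading within the same arrays. In a fit over all probe sets, the 3 other Hmgcs1 probe sets above the lower limit on signal gave 1.49 (adjusted p = 0.0277), 1.51 (0.0191) and 2.16 (0.0315), all past the threshold, while the brightest one, followed here, gave 1.24. Idi1 had a second probe set at 3.97 (adjusted p = 0.0589) and Mvd at 1.56 (0.0891), against 1.75 and -0.05 for the ones followed. The second probe set of Cyp51 gave 2.54 (adjusted p = 0.0891) and the third, near the limit of signal, 0.41 (0.368). Stard4 gave 1.13 and 1.33. The other probe sets of Sc5d gave 1.097 and -0.06, those of Lss 1.11 and -0.25, and those of Fdft1 0.86, 0.11 and -0.09. The second probe set of Scap gave -0.56 (adjusted p = 0.383), against 0.04 for the one followed. Probe sets with a sign opposite to that of the one followed were also seen for Ggps1 (0.21 and 0.24), Hsd17b7 (0.14 and 0.38) and Abca1 (-0.17). No probe set of these 8 genes passed in that fit, and in Sc5d, Lss and Fdft1 the negative values came from dim probe sets, with mean signals of 4.64, 4.20 and 4.43. The probe sets followed for Ggps1, Fdft1, Lss and Hsd17b7 carry suffixes that mark possible cross-hybridisation. With probe sets averaged per gene, 9 of 27 genes passed, Hmgcs1 and Idi1 among them.

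**Figure D3:**
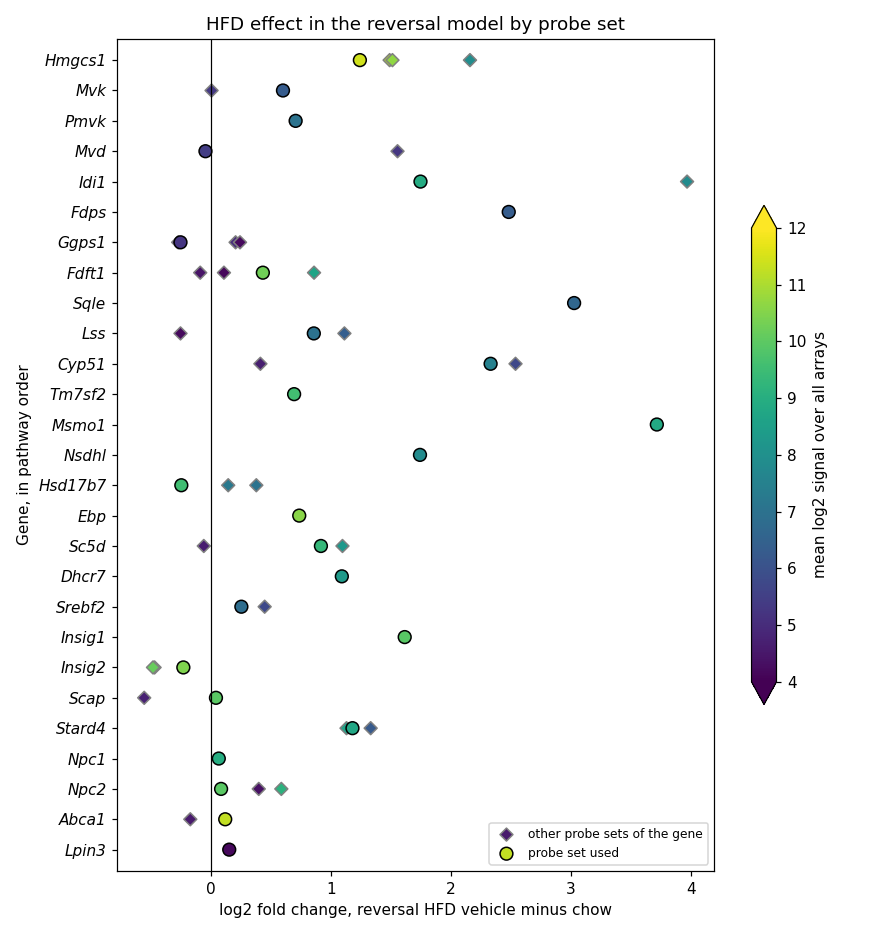
Log2 fold change of reversal HFD against chow for each probe set of the 27 genes; circles are the probe sets followed, diamonds the others above the lower limit on signal, and colour is the mean log2 signal over all arrays. Hmgcs1 probe sets lie between 1.24 and 2.16, and those of Mvd at -0.05 and 1.56.

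With CMPF added to HFD in the reversal model, none of the 27 genes differed from vehicle by limma's adjusted p, with 0 of 27 also at an unadjusted p under 0.05 (4.8% of all genes); over all genes, 5 passed (0.0378%), 0.0151% with a rise and 0.0227% with a fall. Of the 27 values, 22 were above 0 (47.5% of all genes), and their median was 0.19 on the log2 scale, against -0.01 over all genes. The 7 genes of the mevalonate and isoprenoid steps had values of 0.01 to 0.63, and 10 of the 11 sterol genes were positive, with a median of 0.34. The 3 other probe sets of Hmgcs1 above the limit on signal were below 0, however, at -0.12 to -0.10. Those of Ggps1 ran from -0.24 to 0.18, and those of Fdft1, Hsd17b7 and Sc5d also had both signs. Those of Mvk, Mvd, Idi1, Lss and Cyp51 were all above 0. CMPF arrays lay above all vehicle arrays for Idi1, Sqle and Cyp51 (3.79% of all genes) and below them for Insig2 (5.04%).

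Fdps was at 7.48, 6.81 and 8.19 on the CMPF arrays, and its value of 0.63 had a 95% interval of -0.58 to 1.83. Cyp51, at 8.68, 9.30 and 8.82, had 0.54 (-0.53 to 1.61), and Sqle, at 8.40, 8.45 and 8.76, had 0.43 (-0.89 to 1.76). Msmo1, at 10.61, 9.83 and 11.29, had 0.33 (-1.14 to 1.80). These intervals include no change as well as changes of more than 2-fold, so a p that missed the threshold does not show equal levels. Insig2 was at 10.35, 10.06 and 10.75 with CMPF, below the 10.95 to 11.17 of vehicle, with a value of -0.66 ± 0.308 (adjusted p = 1). Lss (0.44), Idi1 (0.39), Stard4 (0.30), Pmvk (0.26), Insig1 (0.21), Lpin3 (-0.13), Srebf2 (0.07), Abca1 (-0.07) and Npc2 (-0.05) did not pass either.

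Against chow, the reversal CMPF group had 9 of 27 genes higher, where 1.61% of all genes rose, and 0 lower, where 0.393% fell; 2% passed in all. It shares the chow arrays with the comparison of vehicle-treated HFD mice, so the values are side by side and not independent. Msmo1 rose by 4.05 with CMPF and by 3.72 with vehicle, Sqle by 3.46 and 3.03, Fdps by 3.11 and 2.48, and Cyp51 by 2.87 and 2.33. Nsdhl rose by 1.91 and 1.74, Insig1 by 1.82 and 1.62, and Stard4 by 1.48 and 1.18. The adjusted p with CMPF was 0.0104 for Msmo1 and 0.0237 for Insig1.

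Dhcr7 and Lss passed against chow with CMPF. Dhcr7 was at 7.27, 8.25 and 7.53 on chow and at 8.89, 9.34 and 9.20 with CMPF, a rise of 1.46 ± 0.315 (adjusted p = 0.0314). Lss, which closes squalene epoxide into lanosterol, was at 6.11, 6.91 and 5.93 on chow and at 7.39, 8.21 and 7.25 with CMPF, a rise of 1.30 ± 0.292 (adjusted p = 0.0371). Neither gene's groups overlapped. In a fit over all probe sets the Lss probe set followed did not pass (adjusted p = 0.0594), and its others gave 1.51 (0.0381) and -0.21 (0.562). With probe sets averaged per gene, Lss was at 0.87 and the call was lost (adjusted p = 0.0708). CMPF arrays lay above all chow arrays for 18 of the 27 genes (10.8% of all genes) and below them for 0 (7.66%). Idi1 (2.14, adjusted p = 0.0606), Hmgcs1 (1.43, 0.0855), Srebf2 (0.32, 0.232), Npc1 (0.07), Abca1 (0.05) and Lpin3 (0.02) did not pass. Insig2 was at -0.89 ± 0.306 against chow (adjusted p = 0.153), and in a fit over all probe sets its others gave -0.92 (0.0519) and -1.24 (0.0343). Without reversal CMPF 3, 1 of 27 genes passed against chow, without chow 3 or CMPF 1, 5, and without both HFD 1 and CMPF 3, 0. The Kupffer markers were at 7.43 to 8.19 on the CMPF arrays, against 6.96 to 7.61 on chow.

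In the prevention model, 2 of 27 genes (7.41%) passed on HFD against chow. This is near the share over all genes, 5.57% (1.74% rose and 3.83% fell). The 2 were the transport genes Npc1, which fell, and Npc2, which rose. At an unadjusted p under 0.05 there were 10 of 27, and 24.8% of all genes. No gene of the 18 measured for synthesis and no gene of SREBP control passed. The median of the 27 values was -0.02, against 0.00 over all genes, with 13 values above 0 (50.2% of all genes). HFD arrays were above all chow arrays for 1 gene, Npc2 (12% of all genes), and below them for 6: Ebp, Sc5d, Insig2, Stard4, Npc1 and Abca1 (17.2%).

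Npc1, the membrane protein that exports cholesterol from lysosomes, was at 9.56, 8.83 and 9.10 on chow and at 8.04, 8.01 and 8.37 on HFD. It fell 2.03-fold, by 1.02 ± 0.19 on the log2 scale (adjusted p = 0.0165). Npc2, its soluble partner in the lysosome, was at 10.05, 9.74 and 9.58 on chow and at 10.74, 10.49 and 10.29 on HFD, a rise of 0.72 ± 0.155 (adjusted p = 0.0244). The 2 other probe sets of Npc2 above the limit on signal gave -0.02 and -0.16, and the mean over its probe sets gave 0.18 (adjusted p = 0.501). Npc1 had a single probe set.

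Among the other transport genes, Stard4 was at 8.67, 8.63 and 8.99 on chow and at 7.89, 7.53 and 8.06 on HFD, with a value of -0.94 ± 0.284 that did not pass (adjusted p = 0.0664). Its 2 other probe sets gave -0.92 and -1.31. Abca1 had -0.25 (adjusted p = 0.214). In SREBP control, Insig1 was at 9.34, 9.99 and 9.72 on chow and at 9.86, 8.90 and 10.24 on HFD (-0.02, adjusted p = 0.986). Insig2 had -0.85 (0.113), Srebf2 0.31 (0.177) and Scap -0.19 (0.291). The other probe set of Scap had the opposite sign, at 0.81, while those of Insig2 gave -0.79 and -0.58 and that of Srebf2 0.36.

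In synthesis, Hmgcs1 was at 9.33, 10.87 and 10.29 on chow and at 11.70, 10.72 and 11.65 on HFD, with overlap and a value of 1.19 ± 0.405 (adjusted p = 0.0925). Its other probe sets did not repeat that value and ran from -0.59 to 0.50. Sc5d, the C-5 desaturase, had -0.9998 ± 0.333 (adjusted p = 0.0888), and Msmo1, at 8.62, 9.01 and 10.07 on chow and 8.71, 7.68 and 8.46 on HFD, had -0.95 ± 0.685 (0.423). Idi1 (-0.67), Pmvk (0.61), Fdps (-0.55), Ebp (-0.54), Ggps1 (-0.45) and Lpin3 (0.41) did not pass either, nor did the remaining genes, with values between -0.27 and 0.32 for the probe sets followed. Other probe sets above the limit on signal gave -1.15 and -0.34 for Hsd17b7, against 0.16, and -0.32 to -0.11 for Fdft1, against 0.24. Those of Cyp51 gave -0.96 and 0.15, those of Sc5d -0.47 and 0.14, and that of Mvd 0.63. Those of Lss gave -0.21 and 0.04, and that of Mvk 0.01.

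The 3' to 5' index moved with the comparison of HFD and chow in prevention, and its 3 chow arrays (0.968 to 1.98) lay below its 3 HFD arrays (2.66 to 3.19). With the index as a covariate, 0 of 27 genes passed, with Npc1 at -0.74 (adjusted p = 0.165) and Npc2 at 0.51 (0.262). Without prevention chow 1 and 3, 0 passed, with Npc1 at -0.69 (adjusted p = 0.763). Leaving out chow 1, chow 3, HFD 1 or HFD 2 alone also left 0, and leaving out chow 2 gave 6. Of the 4 endothelial markers, 1 rose, Stab2 (0.52, adjusted p = 0.049); their mean level was 7.17 to 7.65 on chow and 7.89 to 8.12 on HFD. The pancreas markers Cpa1 and Cela2a had a mean level of 4.62 to 7.58 on prevention chow and 4.32 to 4.57 on prevention HFD. The 6 hepatocyte markers had a mean level of 13.31 to 13.44 on prevention chow and 13.05 to 13.19 on prevention HFD. Their median was -0.26, with 0 of 6 past the threshold. The part of these cells in the result was not tested.

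**Figure D4:**
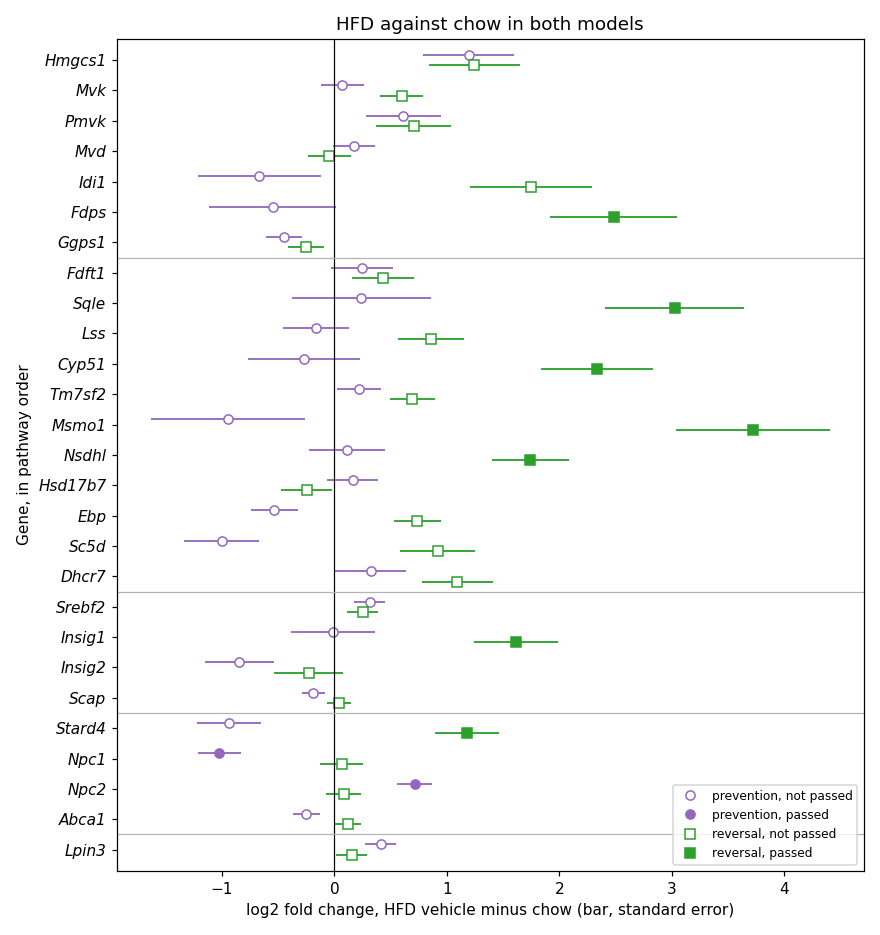
Log2 fold change of HFD with vehicle against chow for the 27 genes in pathway order, prevention (purple circles) and reversal (green squares), with bars of 1 SE; filled symbols passed the threshold. Msmo1 lies at -0.95 in prevention and 3.72 in reversal, while Hmgcs1 lies at 1.19 and 1.24 by the probe set followed. For the 3 other Hmgcs1 probe sets above the limit on signal, reversal minus prevention was 0.99 to 2.75.

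The difference between the HFD effects of both models was tested itself, with no array shared between them. It passed for 8 of 27 genes, each with the larger value in reversal, where 8.84% of all genes had a positive and 2.15% a negative difference past the threshold (11% in all). At an unadjusted p under 0.05 there were 14 of 27 (31% of all genes), and 22 of 27 differences were above 0 (52.7%). The 8 were Fdps, Cyp51, Msmo1, Nsdhl, Ebp, Sc5d, Stard4 and Npc1; Msmo1 differed by 4.66 ± 0.968 (adjusted p = 0.0202) and Stard4 by 2.12 ± 0.402 (0.0182). Sqle (2.79, adjusted p = 0.0541), Idi1 (2.42, 0.0571) and Insig1 (1.63, 0.0604) did not pass, nor did Insig2 (0.62, 0.352), Scap (0.23, 0.309) or Npc2 (-0.63, 0.0733). Other probe sets had the opposite sign for Npc2 (0.555 and 0.607) and Scap (-1.37), and the same sign for Insig2 (0.11 and 0.31). Hmgcs1 differed by 0.05 by the probe set followed and by 0.99 to 2.75 by its 3 others above the limit on signal. Among the genes that passed, Sc5d had others at -0.20 and 1.56, and those of Cyp51 and Stard4 were above 0. For Npc1 the difference came with a value of -1.02 in prevention and 0.07 in reversal. With the 3' to 5' index as a covariate 0 of 27 passed, and the differences of Fdps, Ebp and Npc1 fell to 1.87, 0.67 and 0.70 (adjusted p of 0.387, 0.303 and 0.337). Sc5d fell from 1.92 to 1.09 with probe sets averaged per gene (adjusted p = 0.0338) and to 1.19 without prevention chow 1 and 3 (0.404). Also, 0 passed without prevention chow 1, prevention chow 3 or reversal HFD 1. Without prevention HFD 2 or HFD 3, 3 passed, without reversal chow 3, 4, and without reversal HFD 3, 5. Markers of other cells also differed past the threshold in this comparison: 1 of 4 endothelial markers, Stab2 (-0.91, adjusted p = 0.0244; list median -0.71), and 1 of 3 cholangiocyte markers, Krt19 (-0.76, 0.0244; list median -0.12), both with the smaller value in reversal. The mean endothelial level was 7.91 to 8.38 on reversal chow and 7.74 to 8.12 on reversal HFD, and 7.17 to 7.65 and 7.89 to 8.12 in prevention; their part in the result was not tested.

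Both the chow and the HFD levels of the models entered this difference. Mean Msmo1 was 9.23 on prevention chow and 6.53 on reversal chow, and 8.29 and 10.25 on HFD. Fdps was at 6.95 and 4.38 on chow and at 6.40 and 6.86 on HFD. On chow, 3 of 18 synthesis genes (Fdps, Cyp51 and Msmo1) were more than 2-fold lower in reversal, where 1.85% of all genes were, and 0 were more than 2-fold higher. On HFD with vehicle 5 of 18 were more than 2-fold higher in reversal (5.2% of all genes), and on HFD with CMPF 10 of 18 (1.66%). The arrays of the models sit at separate levels, with a median difference over all genes of 0.11 on chow, and may have been normalised apart, so these levels were not tested.

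CMPF against vehicle on HFD in prevention left 0 of 27 genes past limma's threshold, as it left 0 of all 13221 (0%), with 2 of 27 at an unadjusted p under 0.05 (8.02% of all genes), Tm7sf2 and Npc2. Of the 27 values, 22 were below 0, and 53.2% of all genes were above 0. The median was -0.21, against 0.02 over all genes. For Ggps1, Hsd17b7 and Abca1, below 0 by the probe set followed, every other probe set above the limit on signal was above 0. Those of Mvk, Mvd, Idi1, Srebf2 and Scap were below 0. CMPF samples lay below all vehicle arrays for 6 genes, Mvk, Mvd, Tm7sf2, Nsdhl, Npc2 and Lpin3 (11.1% of all genes), and above them for 0 (19.7%). Tm7sf2, a C-14 sterol reductase, was at 9.64, 9.27 and 9.60 with vehicle and at 9.03, 8.40 and 8.30 on CMPF arrays 1 to 3, with a value of -0.81 ± 0.223 (adjusted p = 0.359). Of the other genes, Fdps and Sqle had -0.71 each, Pmvk -0.67, Msmo1 -0.53, Nsdhl -0.53 and Hmgcs1 -0.49, all with an adjusted p of at least 0.71. In transport, Npc2 had -0.39 (adjusted p = 0.615), Stard4 0.26 (0.899) and Npc1 0.20 (0.867). In SREBP control, Insig2 had 0.38 (0.842), Srebf2 -0.19 (0.827) and Insig1 -0.15 (0.958). Lpin3 had -0.33 (0.625).

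The CMPF samples of this model differed among themselves in the same genes. Msmo1 was at 8.90, 6.71 and 6.53 on CMPF arrays 1 to 3, Sqle at 6.74, 4.31 and 4.34, and Idi1 at 8.99, 6.34 and 6.26. Array 1 was within or above the range of the vehicle arrays for these 3 genes, and the near-identical arrays 2 and 3 were below it. Array 1 exceeded the mean of arrays 2 and 3 by more than 2-fold in 8 of 18 synthesis genes (44.4%) and in 10 of all 27, against 0.386% of all genes. None of the 27 was more than 2-fold lower on array 1. Against chow, the prevention CMPF group had 0 of 27 genes past the threshold (0% of all genes), 7 of 27 at an unadjusted p under 0.05 (9.99%), and a median of -0.37, with 5 of 27 values above 0 (50.4%); it shares its chow arrays with the HFD comparison. Msmo1 had -1.47 ± 0.765 (adjusted p = 0.531), Fdps -1.26 ± 0.629 (0.521), Sc5d -0.90 (0.467), Idi1 -0.85 (0.645), Npc1 -0.82 (0.336), Hmgcs1 0.71 (0.601) and Stard4 -0.68 (0.5). Ebp (-0.61), Insig2 (-0.47), Abca1 (-0.37), Scap (-0.30) and Insig1 (-0.17) did not pass either. Ebp, Scap, Npc1 and Abca1 were lower than on every chow array (14.4% of all genes). The other probe set of Scap gave 0.55, and that of Abca1 -0.285.

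**Figure D5:**
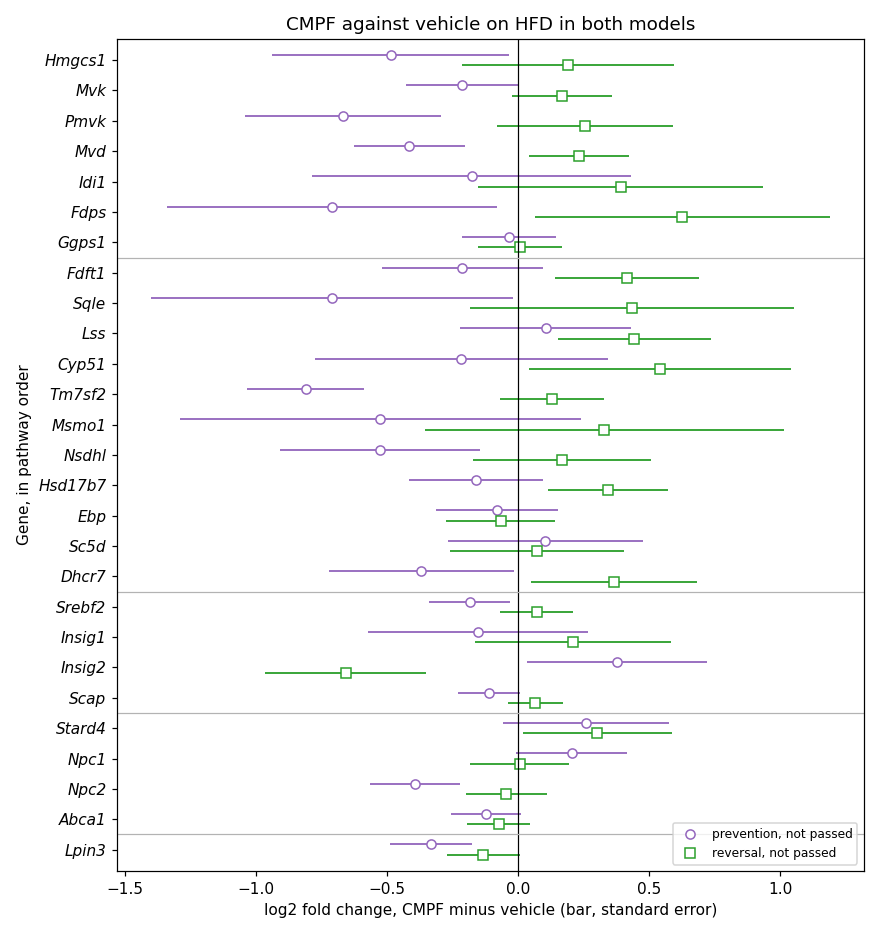
Log2 fold change of CMPF against vehicle on HFD for the 27 genes in pathway order, prevention (purple circles, n = 2 against 3) and reversal (green squares, n = 3 against 3), with bars of 1 SE; open symbols did not pass the threshold. Of the 27 values, 22 lie below 0 in prevention and 22 above 0 in reversal, and none passed.

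The difference between the CMPF effects of both models was above 0 for 24 of 27 genes (46.6% of all genes), with a median of 0.38, but 0 of 27 passed limma's threshold (0% of all genes), and 3 had an unadjusted p under 0.05 (7.93% of all genes). These signs are those of the probe sets followed. For Hmgcs1, Ggps1, Lss, Hsd17b7 and Abca1, every other probe set above the limit on signal was below 0. For Mvk, Mvd, Idi1, Srebf2, Insig2, Scap and Stard4, the others had the sign of the one followed. Fdps differed by 1.34 ± 0.844 (adjusted p = 0.745), Sqle by 1.14 ± 0.927 (0.81), Tm7sf2 by 0.94 ± 0.299 (0.507) and Insig2 by -1.03 ± 0.462 (0.611). Pmvk (0.92), Msmo1 (0.86), Hmgcs1 (0.68), Insig1 (0.36), Npc2 (0.35), Srebf2 (0.26) and Npc1 (-0.20) did not pass either. Opposite medians in the models, -0.21 and 0.19, are therefore not shown to differ gene by gene.

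Within groups, the synthesis genes had larger SDs than the median gene. The median SD of the 18 synthesis genes was 0.35 on prevention chow, 0.44 on prevention HFD, 0.46 on reversal chow, 0.28 on reversal HFD and 0.27 on reversal CMPF, against 0.16 to 0.20 over all genes in these groups. The 18 genes tended to share their high and low arrays. Prevention chow 1 was the lowest of its group for 14 of 18, prevention HFD 2 for 15, and reversal chow 2 was the highest of its group for 14. Prevention CMPF 1 was the highest for 16. In reversal HFD and CMPF no array was highest or lowest for more than 9 of the 18.

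Of 46 other genes around the pathway (SREBP processing, nonsterol branches, acetyl-CoA supply and SREBP1 targets, oxysterols and LXR), 41 were measured. On reversal HFD, 4 rose and 0 fell (2.17% and 0.28% of all genes): Tmem97, a sterol-regulated membrane protein (1.21, adjusted p = 0.0071), the oxysterol receptor LXR-alpha, Nr1h3 (0.61, 0.0242), the acetoacetyl-CoA synthetase Aacs (1.23, 0.0376) and fatty acid synthase, Fasn (1.08, 0.0469). On prevention HFD, 0 rose and 4 fell (1.74% and 3.83% of all genes): the desaturase Fads2 (-0.49, 0.0324), the oxysterol-binding protein Osbp (-0.54, 0.0359), the oxysterol hydroxylase Cyp7b1 (-1.40, 0.0417) and Erlin1 (-0.53, 0.0493), a membrane protein of the Insig and SREBP complex. Between the models, the HFD effect differed past the threshold in 7 of 41, each with the larger value in reversal (8.84% of all genes), led by Tmem97 (1.44, 0.0181), Fads2 (0.74, 0.025) and Erlin1 (0.88, 0.0264).

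With CMPF against chow in reversal, 3 of the 41 rose and 1 fell (1.61% and 0.393% of all genes): Tmem97 (1.35, adjusted p = 0.0029), Aacs (1.19, 0.047) and the sterol hydroxylase Cyp27a1 (0.67, 0.0482) rose and the elongase Elovl6 (-1.24, 0.019) fell. Against vehicle, none of the 41 passed limma's threshold in either model. The smallest unadjusted p in reversal were those of Elovl6 (-0.78), Cyp27a1 (0.41) and Abcg5, a subunit of the canalicular sterol exporter (0.42). In prevention they were those of Cyp7b1 (1.46), Erlin1 (0.49) and Osbp (0.42), 3 genes that had fallen on HFD against chow; both comparisons share the vehicle arrays. Against chow in prevention, none of 41 passed, with Cyp8b1 at -1.09, Tmem97 at -0.57 and Fads2 at -0.34. For the difference of the CMPF effects the smallest p were those of Cyp27a1 (0.58), Erlin1 (-0.51) and Elovl6 (-0.84), none past the threshold.

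Over the 9 reversal arrays, the 5 genes outside the set whose signal was most like the mean of the 11 sterol genes were Tmem97 (Pearson r = 0.986), Zfp383 (0.982), Thrsp (0.980), Bhlhe40 (0.977) and Stim2 (0.973). Within the set, the r of a sterol gene with the mean of the others was 0.984 for Sqle, 0.976 for Cyp51, 0.973 for Nsdhl and 0.955 for Msmo1, and 0.008 for Hsd17b7. The points share the gap between chow and HFD arrays and their normalisation, so these r describe the arrays and carry no test.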

How the data were processed

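Liver RNA was labelled from 200 ng and hybridised to 18 Affymetrix mouse arrays. The deposited log2 values were produced by the authors using RMA in Affymetrix Expression Console 1.1, per the submitters' processing notes; which arrays were normalised together is not given in the sources used here. Arrays give no depth, so the number of arrays limits the precision. Probe sets whose mean was in the lowest 40% were dropped, and each gene kept its brightest single-symbol probe set. Near-identical prevention CMPF arrays 2 and 3 were averaged, leaving 17 samples. One linear model of 6 group means was fitted with limma 3.58.1 in R 4.3.3 (11 residual and 3.02 prior degrees of freedom), adjusted p being Benjamini-Hochberg over 13221 genes.

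The 30 genes, their roles, the other pathway genes and the cell type markers were chosen with earlier results of these data known. Each gene is accounted for; given in full are those past the threshold, and up to 3 per role with the largest value in a comparison. Of other pathway genes, the 3 with the smallest p in a comparison are named, and of genes alike, the 5 with the highest r. Same-numbered arrays did not deviate together (6 of 18 pairs with r over 0.1, from -0.37 to 0.44), so numbers were not treated as pairs. The fit was tested on simulated data for HFD against chow in reversal, with 200 of 13221 genes changed: 76% of changes of 1 and 92% of changes of 2 (log2) were recovered, with 13 false calls. These shares do not give the recovery for the synthesis genes. Their median SD on reversal chow was 0.46, against 0.20 over all genes.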

Additional observations from a re-analysis of the deposited data

Results flagged for a closer look

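The effect of HFD differed between the models, by the test of the difference itself in the limma fit, for 8 of the 27 genes; values are log2, reversal minus prevention. The difference was 4.66 for Msmo1 (-0.95 in prevention, 3.72 in reversal, adjusted p = 0.0202), 3.03 for Fdps (-0.55 and 2.48, 0.0326), 2.60 for Cyp51 (-0.27 and 2.33, 0.0352) and 1.63 for Nsdhl (0.11 and 1.74, 0.0445). It was 1.92 for Sc5d (-0.9998 and 0.92, 0.0281), 1.27 for Ebp (-0.54 and 0.74, 0.0262), 2.12 for Stard4 (-0.94 and 1.18, 0.0182) and 1.09 for Npc1 (-1.02 and 0.07, 0.0281). With the 3' to 5' index as a covariate none of the 8 passed, and the differences of Fdps, Ebp and Npc1 were 1.87, 0.67 and 0.70. None passed without prevention chow 1, prevention chow 3 or reversal HFD 1 either. With probe sets averaged per gene the difference of Sc5d was 1.09, and its other probe sets gave -0.20 and 1.56. Dixon's test for an outlying sample was not applied, since groups of 3 are too small for it.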

How the results depend on the processing

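The 26 values past the threshold kept their sign under all 456 alternatives run on them, but 198 of these alternatives left the value short of the threshold, and none of the 26 passed under every one. For HFD in prevention, 2 of 27 genes passed. With probe sets averaged per gene 1 passed, Npc1. A fit on 2 groups also gave 1, but this was Stard4, and Npc1 and Npc2 were both lost. The count was 0 with the 3' to 5' index as covariate. Without prevention chow 1 and 3, which left a single chow array, Npc1 was at -0.69. For HFD in reversal, 7 passed, and 4 after quantile normalization. A fit on 1 model gave 2, Sqle and Idi1, and Idi1 had not passed in the main fit. The count was 0 in a fit on 2 groups and 0 without reversal HFD 1 and CMPF 3. For CMPF on HFD against chow in reversal, 9 passed, with 0 in a fit on 2 groups and 0 without HFD 1 and CMPF 3. For the difference of the HFD effects, 8 passed, with 0 with the index, 0 without prevention chow 1 and 3, and 1 without HFD 1 and CMPF 3. Leaving out 1 array at a time gave 0 to 6 genes for HFD in prevention, 0 to 5 for HFD in reversal, 1 to 10 for CMPF against chow in reversal and 0 to 8 for the difference. CMPF against vehicle gave 0 genes under each alternative in both models. With all 18 arrays counted and the replicate block, the counts were 2, 6, 9 and 8. The 6 included Ebp and the last 8 included Npc2, which had not passed in the main fit of these comparisons. Centring arrays on their median took the median of all genes from 0.03 to -0.10 for HFD in reversal and from 0.03 to -0.12 for the difference. Causes of these changes were not tested, except that fits on fewer samples have fewer degrees of freedom. Leaving out pairs of arrays with a low index was chosen after seeing the data.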
